A study of Mus musculus with 32 samples.

Results

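Frmd6 and 9 genes of the Hippo pathway were followed through 32 polyA RNA-seq libraries of mouse brain. The members were taken by gene symbol (Frmd6, Nf2, Wwc1, Lats1, Lats2, Yap1, Wwtr1, Ccn1, Ccn2 and Tead1), and all 10 were found among the 56415 genes of the count table. Frmd6 was selected on its vermis levels, which were higher after prenatal ethanol in wild type and lower after it in the knockout, so these values are a description and carry no test. The other 9 were chosen with it as genes of its pathway. The libraries came from 16 C57BL/6J mice, each of which gave dorsal hippocampus and cerebellar vermis. Genotypes were wild type (WT) and a knockout (KO) of the gene for ACSS2, the enzyme that turns acetate into acetyl-CoA. The allele, and whether the knockout was limited to some cells, are not given in the sources used here. Dams spent 5 nights with studs and then had 1 intraperitoneal injection a day until birth, of ethanol at 3 g per kg (20% by volume in saline) or of saline. The young left their dams at postnatal day 21 and were killed between days 40 and 50. The 8 groups (2 regions, 2 genotypes, 2 exposures) held 4 libraries each, labelled F1 and F3 for the 2 females and M1 and M3 for the 2 males.

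The Hippo pathway is a kinase cascade that restrains cell growth and is best known for the control of organ size. FRMD6, the mammalian relative of the fly protein Expanded, merlin (Nf2) and KIBRA (Wwc1) act at the cell membrane upstream of the kinases LATS1 and LATS2. These phosphorylate the coactivators YAP (Yap1) and TAZ (Wwtr1), which are then held in the cytoplasm. When not phosphorylated, YAP and TAZ bind TEAD factors such as TEAD1 in the nucleus and switch on genes such as Ccn1 and Ccn2. In brain, YAP and TAZ are known mainly from neural progenitors and glia, and KIBRA is known for its link to memory and to synapses. Most of this control is by phosphorylation and location of the proteins, which RNA counts do not measure.

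Promoter windows are shown to place the TEAD motif among the members: 8 of the 10 genes had at least 1 window of 250 bases before the start in the RefSeq table (build GRCm38.p6), and 3 of them held the 6-base TEAD core, GGAATG, or its reverse complement, CATTCC. Of all 32851 windows of this length, 12.6% held it on either strand. The windows of Frmd6 (chr12:70825264-70825513, plus strand) and of Ccn1 (chr3:145649986-145650235, minus strand) are printed with the motif in capitals. The Frmd6 window had no match, and that of Ccn1, a classical TEAD target, had 1 that began 103 bases before the start.
Frmd6: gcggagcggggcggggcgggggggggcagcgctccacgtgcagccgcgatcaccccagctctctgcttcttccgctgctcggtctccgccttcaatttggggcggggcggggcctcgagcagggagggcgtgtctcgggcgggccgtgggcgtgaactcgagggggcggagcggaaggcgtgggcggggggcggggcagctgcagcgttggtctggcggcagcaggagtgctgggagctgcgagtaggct
Ccn1: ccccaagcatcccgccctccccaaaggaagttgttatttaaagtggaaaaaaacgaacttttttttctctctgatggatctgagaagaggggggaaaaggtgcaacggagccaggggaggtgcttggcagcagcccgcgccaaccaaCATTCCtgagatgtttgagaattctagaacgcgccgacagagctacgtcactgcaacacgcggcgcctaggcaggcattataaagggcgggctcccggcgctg
Yap1 had a match 141 bases before its start. Wwtr1 had 1 site, which lies 136 bases before one of its annotated starts and 170 bases before the other. The windows of Nf2, Wwc1, Lats1 and Lats2 held none of these letters on either strand. A match is a description of letters in the window and is no measure of binding.

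Total counts ran from 54092519 to 96664509 in the hippocampal libraries and from 23085928 to 73803508 in the vermis libraries. Acss2 was lower in every KO library (10.8 to 13.8 CPM, counts scaled to a common library total, in hippocampus and 10.6 to 19.8 CPM in vermis) than in every WT library (51.0 to 64.4 and 55.1 to 66.7 CPM). Purkinje neuron sums matched the region labels, at 2337 to 8256 CPM in vermis and 543 to 1211 CPM in hippocampus. Hippocampal pyramidal neuron sums did so too, at 54.3 to 89.3 and 347 to 713 CPM. Dentate granule neuron sums overlapped, at 303 to 475 and 204 to 689 CPM. The lowest were those of hippocampal F1 in saline-exposed WT (204 CPM) and in ethanol-exposed KO (216 CPM). In the ethanol-exposed KO vermis, F1 and M3 stood apart. Their Purkinje marker sums (2337 and 4882 CPM) and cerebellar granule neuron sums (1285 and 2477 CPM) lay below those of all other vermis libraries, and F1 had a blood marker sum of 22934 CPM. Microglial sums were high in both, at 194 and 133 CPM (at most 106 CPM in the other vermis libraries). Oligodendrocyte precursor sums were high too, at 285 and 171 CPM (at most 139 CPM). Astrocyte and Bergmann glia sums were low in both, at 1476 and 1871 CPM, against 1947 to 2385 CPM in the other vermis libraries. The myelin sum was 12246 CPM in F1 and 5252 CPM in M3, against at most 6323 CPM elsewhere in vermis. The M1 and F3 libraries of that group had Purkinje sums of 7685 and 8162 CPM. In hippocampus the choroid plexus sum varied from 31.8 to 3210 CPM. In bulk tissue, fewer cells of a type and less RNA per cell cannot be told apart.

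In the vermis Frmd6 (ENSMUSG00000048285, GRCm39 chr12:70872288-70949008, plus strand) was high in 2 groups and low in the other 2. Levels are given in CPM scaled by the trimmed mean of M-values over all libraries, in the order M1, M3, F1 and F3. Saline-exposed WT vermis had 24.6, 25.3, 29.1 and 28.7 CPM, and ethanol-exposed WT vermis had 45.7, 37.5, 39.6 and 41.4 CPM. All 4 ethanol-exposed WT libraries were above all 4 saline-exposed ones. In KO vermis the order was the opposite. The saline-exposed KO libraries had 33.6, 39.3, 43.2 and 39.7 CPM, and the ethanol-exposed ones had 26.8, 21.9, 18.2 and 23.7 CPM, again without overlap. The log2 ratio of ethanol to saline was 0.60 ± 0.11 (SE, n = 4 and 4) in WT and -0.77 ± 0.11 in KO, and the difference between them was -1.37 ± 0.15. In mean CPM the ethanol group stood at 1.52 times the saline group in WT and at 0.583 times in KO. Between genotypes the log2 difference, KO minus WT, was 0.54 ± 0.11 after saline and -0.83 ± 0.11 after ethanol, and these groups did not overlap either.

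Without F1 and M3 of the ethanol-exposed KO vermis the log2 ratio in KO was -0.61, and the remaining libraries, M1 and F3, were below all 4 saline-exposed KO libraries. Their Purkinje sums (7685 and 8162 CPM) lay within the range of the saline-exposed KO group (6496 to 8256 CPM). F3 had the lowest total count of the series (23085928). The part of cell makeup in the Frmd6 values was not tested. Leaving out 1 vermis library at a time gave log2 ratios of 0.54 to 0.65 in WT and of -0.87 to -0.66 in KO.

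**Figure D1:**
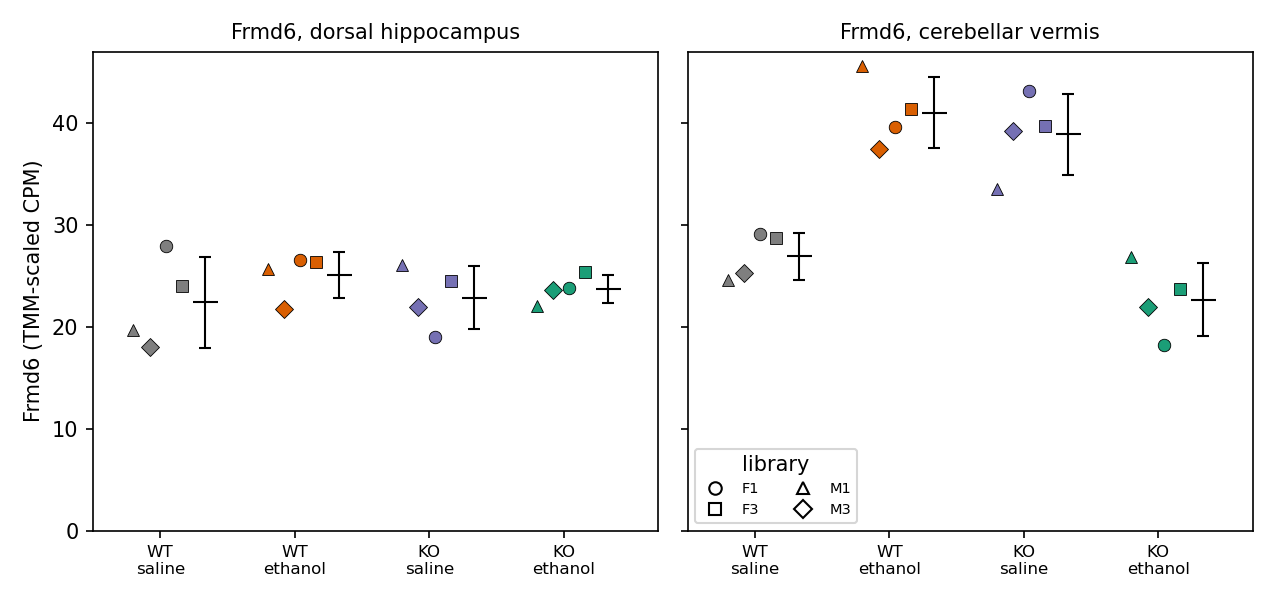
Frmd6 in each library (CPM, linear axis from 0), by genotype and exposure, in dorsal hippocampus (left) and cerebellar vermis (right). Symbols mark the libraries F1, F3, M1 and M3, and bars give the mean ± SD of 4 libraries. In vermis the ethanol-exposed WT and saline-exposed KO libraries lie at 33.6 to 45.7 CPM and the other 8 at 18.2 to 29.1 CPM, while the 16 hippocampal libraries lie at 18.04 to 27.9 CPM.

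Ordered by mean, Frmd6 was highest in ethanol-exposed WT vermis (41.1 ± 3.47 CPM, SD, n = 4) and in saline-exposed KO vermis (38.9 ± 3.98 CPM), and these neighbours overlapped. The next group, saline-exposed WT vermis (27.0 ± 2.31 CPM), was separate from them. From there down every group overlapped the next one in the order. These were ethanol-exposed WT hippocampus (25.1 ± 2.28 CPM), ethanol-exposed KO hippocampus (23.7 ± 1.37 CPM), saline-exposed KO hippocampus (22.9 ± 3.09 CPM), ethanol-exposed KO vermis (22.7 ± 3.60 CPM) and saline-exposed WT hippocampus (22.4 ± 4.46 CPM). The lowest vermis group was therefore at the level of the hippocampus.

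In the hippocampus, which the choice of Frmd6 did not use, no difference in Frmd6 passed the test. Saline-exposed WT hippocampus had 19.7, 18.04, 27.9 and 24.0 CPM, and ethanol-exposed WT hippocampus 25.7, 21.7, 26.5 and 26.4 CPM. In KO the values were 26.0, 21.9, 19.0 and 24.5 CPM after saline and 22.0, 23.6, 23.8 and 25.4 CPM after ethanol. The groups overlapped in each comparison. The log2 difference after ethanol was 0.17 ± 0.11 in WT (edgeR quasi-likelihood test, Benjamini-Hochberg adjusted p = 0.644) and 0.05 ± 0.11 in KO (adjusted p = 0.904). The exposure by genotype interaction was -0.11 ± 0.16 (adjusted p = 0.870). For the same mice, the exposure effect in vermis minus that in hippocampus was 0.43 ± 0.16 in WT and -0.85 ± 0.16 in KO, which is given as a description because it holds the vermis values.

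The transcript table counts a read for each model it overlaps, so its models are not independent. The protein-coding model Frmd6-201 (14 exons, 4662 bases) had 24.9 to 29.2 CPM in saline-exposed WT vermis and 37.3 to 45.1 CPM after ethanol. In KO vermis it had 34.2 to 43.1 CPM after saline and 18.1 to 27.0 CPM after ethanol. Over the 4 annotated models the ratio of mean CPM, ethanol to saline, was 1.48 to 1.54 in WT vermis and 0.436 to 0.600 in KO vermis. A gene without a symbol lies on the opposite strand across Frmd6 exons (chr12:70904717-70918143), and the strand setting of the counts is not given in the sources used here. Frmd6's named neighbours, Gm40437 and Gm46355, did not exceed 0.191 CPM in any library.

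Nf2 and Wwc1, which with FRMD6 form the upstream arm, were similar between the exposure groups of each genotype. In WT vermis Nf2 measured 81.8, 85.7, 80.6 and 84.0 CPM after saline and 85.0, 90.7, 85.3 and 85.7 CPM after ethanol, a log2 difference of 0.06 ± 0.05 (edgeR adjusted p = 0.957). In KO vermis the difference was also 0.06 ± 0.05 (adjusted p = 0.555). After ethanol, all 4 KO vermis libraries (79.3 to 84.6 CPM) were below all 4 WT ones, with a log2 difference of -0.05 ± 0.05 (adjusted p = 0.486). Wwc1 in KO vermis measured 49.9, 44.0, 41.6 and 50.6 CPM after saline and 41.7, 59.3, 65.4 and 42.7 CPM after ethanol. The high pair is M3 and F1, the libraries that stood apart. The log2 difference was 0.18 ± 0.13 (adjusted p = 0.509), and -0.13 without those libraries. In KO hippocampus Wwc1 had 93.1 to 102 CPM after saline and 101 to 116 CPM after ethanol (log2 0.21 ± 0.07, adjusted p = 0.385).

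Among the vermis groups, the mean levels of the LATS kinases were lowest in ethanol-exposed KO vermis. Lats1 measured 57.1, 59.2, 60.7 and 57.5 CPM in saline-exposed KO vermis and 53.5, 45.0, 39.2 and 58.7 CPM after ethanol. Lats2 measured 67.4, 80.1, 78.0 and 74.0 CPM and then 71.8, 61.5, 45.9 and 71.7 CPM. For both genes the low values were those of M3 and F1, and the groups overlapped. The log2 differences were -0.25 ± 0.10 for Lats1 and -0.25 ± 0.11 for Lats2 (edgeR adjusted p = 0.365 for each). Without M3 and F1 they were -0.06 and -0.06 (adjusted p = 0.995 and 0.990). Without F3 instead, Lats1 passed (-0.36, adjusted p = 0.0477). Against ethanol-exposed WT vermis, where Lats2 had 72.6 to 82.9 CPM and Lats1 55.9 to 67.9 CPM, the log2 differences were -0.28 ± 0.10 for Lats1 (adjusted p = 0.103) and -0.27 ± 0.11 for Lats2 (adjusted p = 0.144). DESeq2 called Lats1 there (adjusted p = 0.0453), and without F3 of the KO group edgeR called both (-0.40, adjusted p = 0.00772, and -0.36, adjusted p = 0.0290). In F1 and M3 the Purkinje neuron, granule neuron and astrocyte sums were low and the microglial and oligodendrocyte precursor sums high, as given above. The part of these cell types in the LATS values was not tested. In WT vermis Lats2 was higher after ethanol (72.6 to 82.9 CPM) than after saline (69.1 to 71.6 CPM) in every library, with a log2 difference of 0.11 ± 0.11 (adjusted p = 0.967). Lats2 shares exons on its own strand with Gm49361, which reached 55.1 CPM, so reads of these genes cannot be told apart.

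Yap1, which encodes the coactivator YAP, was at 17.1 to 26.2 CPM in hippocampus and 17.9 to 27.4 CPM in vermis, and no group was separate from the one it was compared with. Its log2 differences after ethanol were 0.06 ± 0.13 and 0.16 ± 0.13 in WT and KO hippocampus and -0.05 ± 0.11 and -0.07 ± 0.11 in vermis, with edgeR adjusted p from 0.729 to 0.980. Wwtr1, which encodes TAZ, had higher values in every KO than in every WT hippocampal library of the same exposure. After saline it had 16.2, 16.5, 14.7 and 15.8 CPM in WT and 18.7, 16.9, 18.02 and 18.8 CPM in KO (log2 0.19 ± 0.07, adjusted p = 0.453). After ethanol it had 14.7, 16.2, 14.1 and 16.9 CPM in WT and 20.1, 18.6, 19.9 and 18.03 CPM in KO (0.31 ± 0.07, adjusted p = 0.111). DESeq2 called the second difference (0.31, adjusted p = 0.0170). Saline-exposed vermis had the same order, with 19.6 to 21.8 CPM in WT and 22.7 to 25.4 CPM in KO (0.22 ± 0.08, adjusted p = 0.183). Vascular marker sums separated the same saline groups. Endothelial sums were 148 to 160 CPM in WT and 172 to 199 CPM in KO hippocampus, and 184 to 198 and 207 to 213 CPM in vermis. Pericyte and smooth muscle sums were 138 to 147 and 164 to 190 CPM in hippocampus, and 183 to 187 and 194 to 206 CPM in vermis. Fibroblast sums were 113 to 127 and 153 to 189 CPM in vermis and overlapped in hippocampus. Of these markers 1 of 7 endothelial and 1 of 8 fibroblast genes were called, both in vermis. The part of these cells in the Wwtr1 values was not tested.

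Tead1, the DNA-binding partner, had 32.7, 30.7, 31.4 and 35.2 CPM in ethanol-exposed WT hippocampus and 42.9, 46.4, 36.0 and 40.9 CPM in ethanol-exposed KO hippocampus. The groups did not overlap, and the log2 difference was 0.35 ± 0.12 (edgeR adjusted p = 0.304). In this comparison the summed microglial markers also separated the groups (233 to 274 CPM in WT, 282 to 317 CPM in KO), with 1 of 6 genes called. The summed astrocyte markers ran from 1250 to 1430 CPM and from 1368 to 1526 CPM, with 0 of 8 called. The endothelial sums overlapped (155 to 192 and 170 to 214 CPM), with 1 of 7 called. The part of these cell types in the Wwtr1 and Tead1 values was not tested. In vermis Tead1 differed by at most 0.08 on the log2 scale in any comparison within the region.

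The targets Ccn1 and Ccn2, which encode secreted matrix proteins, had the largest standard errors of the members in the exposure comparisons. Ccn1 in WT vermis measured 1.77, 2.42, 3.13 and 1.54 CPM after saline and 0.997, 1.14, 1.34 and 1.79 CPM after ethanol. The groups overlapped only through the highest ethanol-exposed library. The log2 difference was -0.78 ± 0.22 (edgeR adjusted p = 0.905), from 48 to 230 counts per vermis library. In KO vermis it was -0.11 ± 0.22 (adjusted p = 0.838). A difference between genotypes in this effect was not detected at this depth (interaction 0.67 ± 0.32, adjusted p = 0.447).

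Ccn2 was higher after ethanol in WT hippocampus in all 4 libraries, without passing the test. It measured 7.62, 6.63, 11.7 and 6.64 CPM after saline and 13.6, 12.4, 21.2 and 24.8 CPM after ethanol. The log2 difference was 1.13 ± 0.45 (edgeR adjusted p = 0.420). In KO hippocampus the groups overlapped, with 15.3, 7.81, 5.38 and 9.46 CPM after saline and 20.4, 17.9, 33.6 and 7.35 CPM after ethanol (1.05 ± 0.45, adjusted p = 0.502). In vermis the difference was 0.39 ± 0.24 in WT and -0.30 ± 0.24 in KO (adjusted p = 0.928 and 0.556).

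Ccn2 is also known as a gene of the deepest neurons of neocortex, layer 6b. The summed level of 3 other layer 6b genes (Cplx3, Nxph4 and Moxd1, a list chosen after the values were seen) was 10.6 to 16.6 CPM in saline-exposed and 16.4 to 25.3 CPM in ethanol-exposed WT hippocampus, and 10.4 to 19.2 and 12.5 to 31.4 CPM in KO. In WT the log2 differences were 1.18 for Cplx3, 0.40 for Nxph4 and -0.11 for Moxd1, and none was called (edgeR adjusted p = 0.420, 0.828 and 0.886). A list of 5 other neocortical genes was also chosen after the values were seen. It summed to 76.3 to 92.7 CPM after saline and 80.1 to 96.3 CPM after ethanol in WT, with 0 called. Of this list, Rspo1 had 0.575 to 0.889 CPM after saline and 1.29 to 1.93 CPM after ethanol in WT. Its log2 difference was 0.92 ± 0.25 (edgeR adjusted p = 0.283), and those of the others ran from -0.13 to 0.31. In WT the choroid plexus sum was 53.3 to 1282 CPM after saline and 518 to 1913 CPM after ethanol. Of its 6 genes 0 were called. By library the sum went with Ccn2 in part. The libraries with the highest sum in ethanol-exposed WT (F3, 1913 CPM) and saline-exposed KO (M1, 1226 CPM) also had their groups' highest Ccn2. In saline-exposed WT and ethanol-exposed KO the highest sum and the highest Ccn2 fell in different libraries. The WT saline library with the highest choroid plexus sum, M1, had 7.62 CPM of Ccn2, and the KO ethanol library with the lowest, M1 with 112 CPM, had 20.4 CPM. The part of these tissues in the Ccn2 values was not tested. An antisense gene overlaps exons of Ccn2 (Gm15270, at most 1.64 CPM) and another those of Ccn1 (Gm17501, at most 1.56 CPM).

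**Figure D2:**
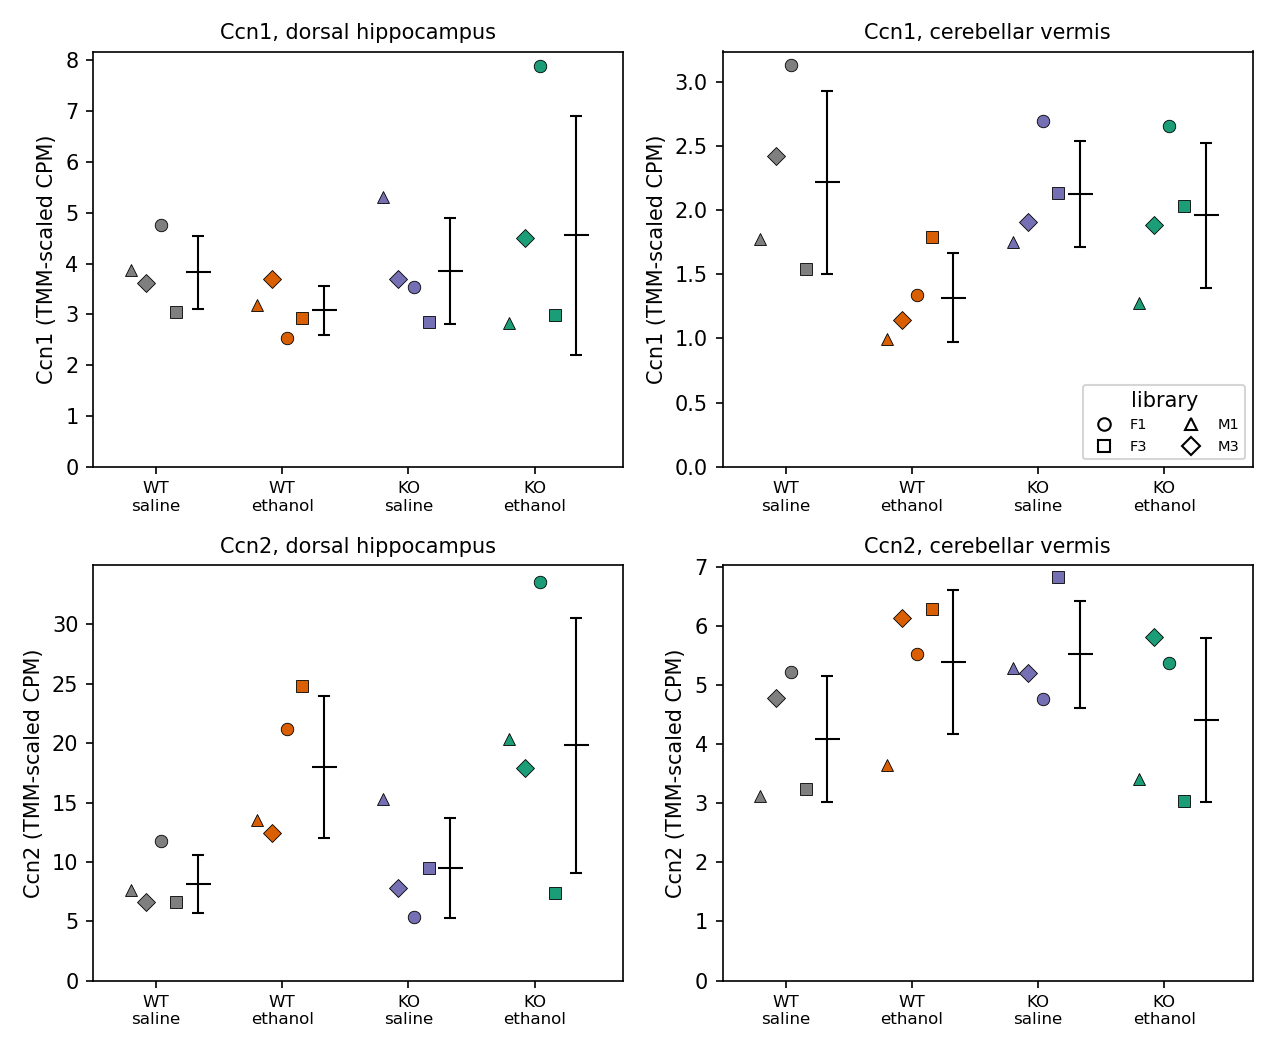
Ccn1 (top) and Ccn2 (bottom) in each library (CPM, linear axes from 0, each panel with its own scale), in dorsal hippocampus (left) and vermis (right). Symbols mark libraries and bars give the mean ± SD of 4. Ccn2 in WT hippocampus lies at 6.63 to 11.7 CPM after saline and at 12.4 to 24.8 CPM after ethanol.

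Within regions no tested member passed the edgeR threshold of 0.05 adjusted over all genes, in a setting where few genes did so. For ethanol against saline in WT hippocampus 0 of 10 members were called against 0% of all genes, with 2 members under an unadjusted p of 0.05 (Lats1 and Ccn2) and 0 called by DESeq2. In KO hippocampus 0 of 10 were called against 0.0513% of all genes, with 2 under that p (Wwc1 and Ccn2) and 0 by DESeq2. For WT vermis 0 of the 9 members other than Frmd6 were called against 0.00446%, with 1 under that p (Ccn1) and 0 by DESeq2. For KO vermis 0 of 9 were called against 0.0891%, with 2 under that p (Lats1 and Lats2) and 0 by DESeq2. With so few calls over all genes, these counts do not separate the members from the background. Under an unadjusted p of 0.05 lay 2457 (WT) and 2177 (KO) of 23394 genes in hippocampus. In vermis these were 1194 (WT) and 2993 (KO) of 22441 genes.

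Between genotypes the edgeR counts were also 0, and the vermis backgrounds were higher. With 9 members tested, a count of 0 does not separate them from shares of 4.91% and 7.53%. In hippocampus 0 of 10 members were called after saline against 0.00427% of all genes (3 under an unadjusted p of 0.05, 0 by DESeq2), and 0 of 10 after ethanol against 0.171% (2 under it, and Wwtr1 by DESeq2). In saline-exposed vermis 0 of 9 were called against 4.91% (1 under it, Wwtr1, and 0 by DESeq2). In ethanol-exposed vermis 0 of 9 were called against 7.53% (3 under it, Lats1, Lats2 and Ccn1, and Lats1 by DESeq2). For the interaction 0 of 10 were called in hippocampus against 0.175% and 0 of 9 in vermis against 0.107%. Under an unadjusted p of 0.05 there were 2 members in each, and DESeq2 called 0 in each. Of all 23394 genes in hippocampus, 2070 were under it after saline, 2320 after ethanol and 2326 for the interaction. Of all 22441 genes in vermis, 3152 were under it after saline, 5732 after ethanol and 2524 for the interaction.

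**Figure D3:**
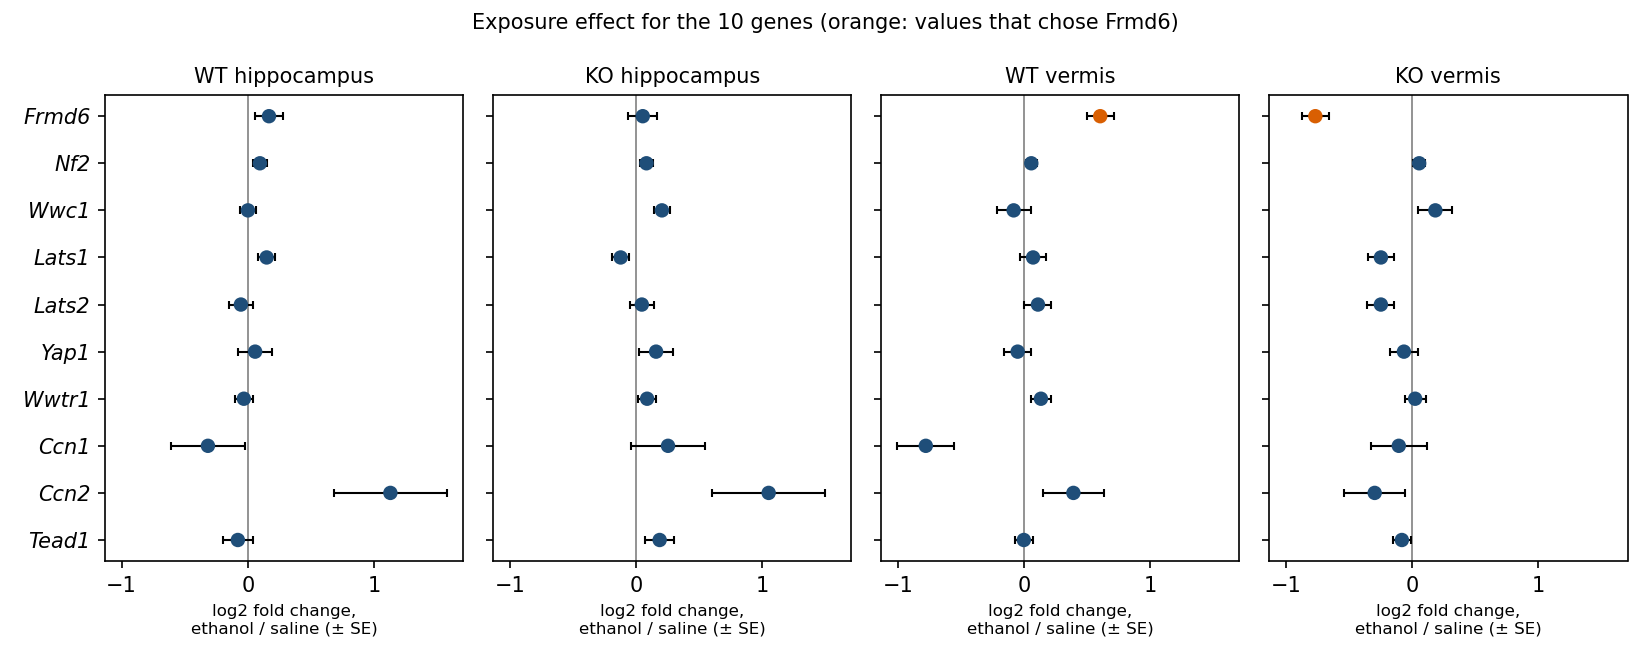
Log2 fold change of ethanol against saline (± SE, edgeR) for the 10 genes in WT and KO hippocampus and in WT and KO vermis. Orange points are the Frmd6 values that chose it, 0.60 and -0.77, and blue points are tested values, none of which passed. The widest errors are those of Ccn2 in hippocampus.

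The regions differed in 8 of the 9 members other than Frmd6, tested with mouse as a block, against 72.6% of all genes (34.6% higher and 38% lower in vermis). For Frmd6 this comparison holds the vermis values that chose it, so its difference is a description. It was higher in vermis in 13 of 16 mice, by 0.42 ± 0.06 on the log2 scale over the 4 groups. Wwtr1 was higher in vermis in 16 of 16 mice (log2 0.43 ± 0.04, edgeR adjusted p = 7.80e-09), Lats1 in 14 (0.23 ± 0.05, adjusted p = 0.000193) and Yap1 in 11 (0.16 ± 0.06, adjusted p = 0.0313). Leaving out 1 mouse lifted the Yap1 value above the threshold in 5 of 16 cases (adjusted p up to 0.0647).

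Lower in vermis were Nf2 and Wwc1 of the upstream arm, the partner Tead1, and both targets. Wwc1 fell from 105 ± 7.61 CPM (SD, n = 16) in hippocampus to 49.3 ± 6.68 CPM in vermis, a log2 difference of -1.10 ± 0.04 (edgeR adjusted p = 3.21e-13). Nf2 had -0.63 ± 0.02 (adjusted p = 2.35e-13) and Tead1 had -0.46 ± 0.05 (adjusted p = 8.83e-08). Ccn1 had -1.01 ± 0.11 and Ccn2 -1.36 ± 0.13 (adjusted p = 2.07e-07 and 9.21e-08). Each of these 5 genes was lower in vermis in 16 of 16 mice. Lats2 had 70.7 ± 7.95 CPM in hippocampus and 71.1 ± 8.41 CPM in vermis (log2 0.01 ± 0.05, adjusted p = 0.930). A share of 8 in 9 is read against a background in which most genes differed between regions.

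**Figure D4:**
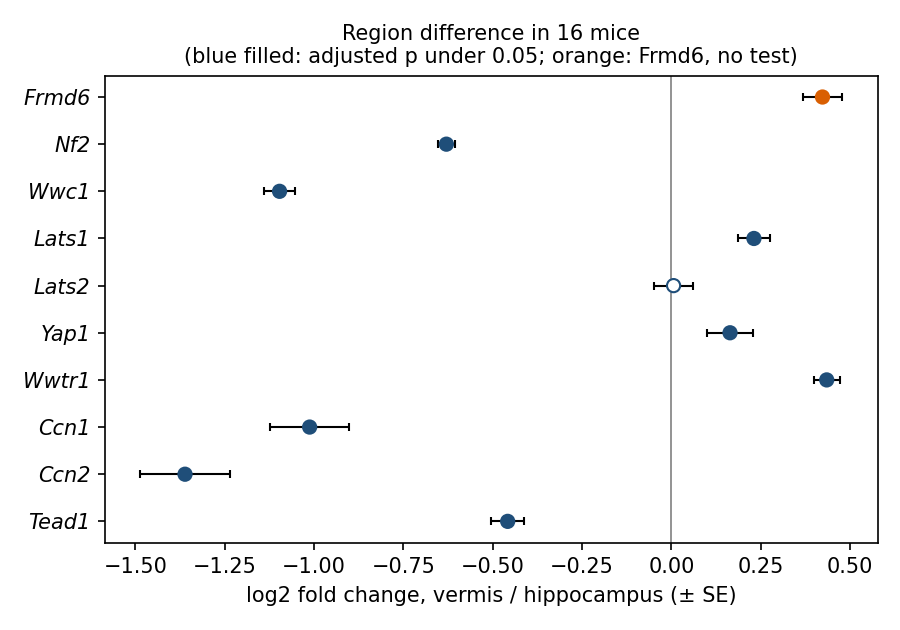
Log2 fold change of vermis against hippocampus (± SE, edgeR, mean of the 4 groups, 16 mice) for the 10 genes. Blue filled points passed an adjusted p of 0.05 and the open point, Lats2, did not. The orange point, Frmd6, has no test. Wwc1, Ccn1 and Ccn2 lie at -1.01 or below and Frmd6 and Wwtr1 near 0.43.

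Per kilobase of exon, Nf2, Wwc1 and Lats2 had the highest levels of the members in both regions. In hippocampus Wwc1 stood first with 21.2 ± 1.53 CPM per kilobase (SD, n = 16), followed by Nf2 with 18.8 ± 0.964. In vermis Nf2 stood first with 12.2 ± 0.524, followed by Lats2 with 10.2 ± 1.21 and Wwc1 with 9.95 ± 1.35. Frmd6 had 3.68 ± 0.454 in hippocampus and 5.07 ± 1.34 in vermis. Ccn1 was last in both, with 1.90 ± 0.657 and 0.943 ± 0.295.

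The exposure effect did not differ detectably between regions for the 9 members other than Frmd6. In WT 0 of 9 were called against 0% of all genes (0 under an unadjusted p of 0.05 and 0 by DESeq2). In KO 0 of 9 were called against 0.00409% (1 under it, Ccn2, and 0 by DESeq2). Of all 24458 genes, 1217 were under that p in WT and 1474 in KO. Ccn2 in KO had -1.36 ± 0.36 (edgeR adjusted p = 0.690). All 9 had negative values in KO, with a median of -0.22 beside 0.002 for all genes. These were read from the same libraries, so they are not independent. They hold F1 and M3 of the ethanol-exposed KO vermis, and this comparison was not fitted without both.

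Other genes of the pathway, in lists that hold the members as well, showed few changes. After ethanol no gene of the lists was called in either region or genotype. These were up to 47 tested upstream regulators, 9 core kinases and adaptors, 15 effectors and partners, 21 FERM-domain relatives and 21 YAP and TAZ targets, with Frmd6 left out in vermis. In KO vermis 8 of 9 core kinases and adaptors had negative values after ethanol, with a median of -0.08 beside 0.003 for all genes. The ethanol group holds F1 and M3, without which the Lats1 and Lats2 differences were smaller in size, as given above. In saline-exposed vermis, KO against WT, where 4.91% of all genes were called, only Map4k2, a kinase that can activate LATS, was called among these lists, at 73.5 to 85.9 CPM in KO and 89.2 to 101 CPM in WT (log2 -0.24 ± 0.06, edgeR adjusted p = 0.0320). Leaving out 1 library ended that call in 6 of 16 cases.

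In ethanol-exposed vermis, KO against WT, all 9 core kinases and adaptors had negative values, with a median of -0.17 beside 0.03 for all genes. In this comparison 7.53% of all genes were called. Of the 9, only Stk4, which encodes the MST1 kinase upstream of LATS, was called (log2 -0.24 ± 0.06, edgeR adjusted p = 0.0329). It had 43.7, 44.1, 37.8 and 47.5 CPM in KO and 54.2, 52.3, 48.9 and 52.0 CPM in WT, without overlap. The polarity gene Scrib (-0.24 ± 0.06, adjusted p = 0.0297) and the polarity kinase gene Mark2 (-0.19 ± 0.05, adjusted p = 0.0280) were lower too. Among YAP and TAZ targets Gadd45a, a stress-response gene, rose (0.48 ± 0.09, adjusted p = 0.00350) and so did Dock5 (0.94 ± 0.26, adjusted p = 0.0438), while 17 of 21 had positive values.

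Without F1 and M3 of the KO group most of this did not hold. That fit keeps only M1 and F3 in the group, so it has less power. The Stk4 value was then -0.17 (adjusted p = 0.191), that of Scrib -0.21 (adjusted p = 0.140), that of Mark2 -0.14 (adjusted p = 0.206) and that of Dock5 0.27 (adjusted p = 0.584). The Gadd45a value was 0.50 (adjusted p = 0.00994). A fit of the compared groups alone called none of these 5 genes (adjusted p = 0.0513 for Gadd45a and 0.170 to 0.229 for the others). With 1 library left out in turn, the call ended in 14 of 16 cases for Dock5, 6 for Stk4, 5 for Mark2 and 3 for Scrib. Without both F1 and M3 the core kinases had 8 of 9 negative values with a median of -0.06. The targets had 8 of 21 positive values with a median of -0.04 in that fit. In this comparison 5 of 8 markers of meningeal and perivascular fibroblasts and 2 of 5 blood markers were called higher in KO. The fibroblast sums were 90 to 158 CPM in WT and 140 to 233 CPM in KO, and the blood sums 256 to 1136 CPM and 767 to 22934 CPM. The part of these cells in the list values was not tested.

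In the hippocampus the FERM relative Frmd4a, a scaffold gene, was called for the exposure by genotype interaction (log2 -0.55 ± 0.11, edgeR adjusted p = 0.0493). It had 73.3, 59.4, 61.5 and 69.1 CPM after saline and 77.3, 82.8, 76.7 and 77.2 CPM after ethanol in WT. In KO it had 72.9, 74.9, 88.2 and 79.5 CPM after saline and 64.7, 61.8, 59.8 and 69.5 CPM after ethanol. The groups were separate in both genotypes, in opposite directions. The call was lost without the sex term (adjusted p = 0.0543), with the replicate label as a block (adjusted p = 0.0610) and in 15 of 16 cases with 1 library left out (log2 -0.61 to -0.48).

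The genes whose log2 CPM followed Frmd6 most closely over the 16 vermis libraries were named by the highest Pearson r among 13770 genes with a mean of at least 1 CPM. They were Bcl2l1, which encodes the survival protein BCL-XL (r = 0.944), Mxi1, a partner of MAX (0.937), Ctnnd1, p120 catenin (0.931), Ifrd1 (0.926) and Spred2, an inhibitor of RAS signalling (0.919). Bcl2l1 measured 102 ± 4.00 CPM (SD, n = 4) in saline-exposed and 121 ± 8.76 CPM in ethanol-exposed WT vermis, and 116 ± 6.90 and 95.2 ± 8.03 CPM in KO. Spred2 measured 76.3 ± 4.18 and 123 ± 10.4 CPM in WT, and 109 ± 17.1 and 77.6 ± 15.96 CPM in KO. The lowest r belonged to Gadd45a (-0.885), Id3 (-0.867) and Siglech, a microglial gene (-0.852). Both genes of a pair were read from the same libraries, which share depth and cell makeup, so these values are descriptions. Frmd6 was chosen for its vermis levels and these genes by their r with it, so their group pattern follows from the choice. Of the members, Lats2 (r = 0.789, rank 207) and Lats1 (0.732, rank 492) were nearest and Wwc1 (-0.552) farthest.

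Over the 16 hippocampal libraries other genes led, from 14101 genes. The highest r were those of the opioid receptor gene Oprd1 (0.866), Cmya5 (0.859), Stxbp5l (0.846), the filamin gene Flna (0.834) and Adam12 (0.812), and the lowest those of Uchl1 (-0.869), Nr2f1 (-0.854) and Camk2n2 (-0.847). Of the members, Lats1 (0.530) and Ccn2 (0.519) were nearest to Frmd6 there, and Lats2 had -0.06.

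**Figure D5:**
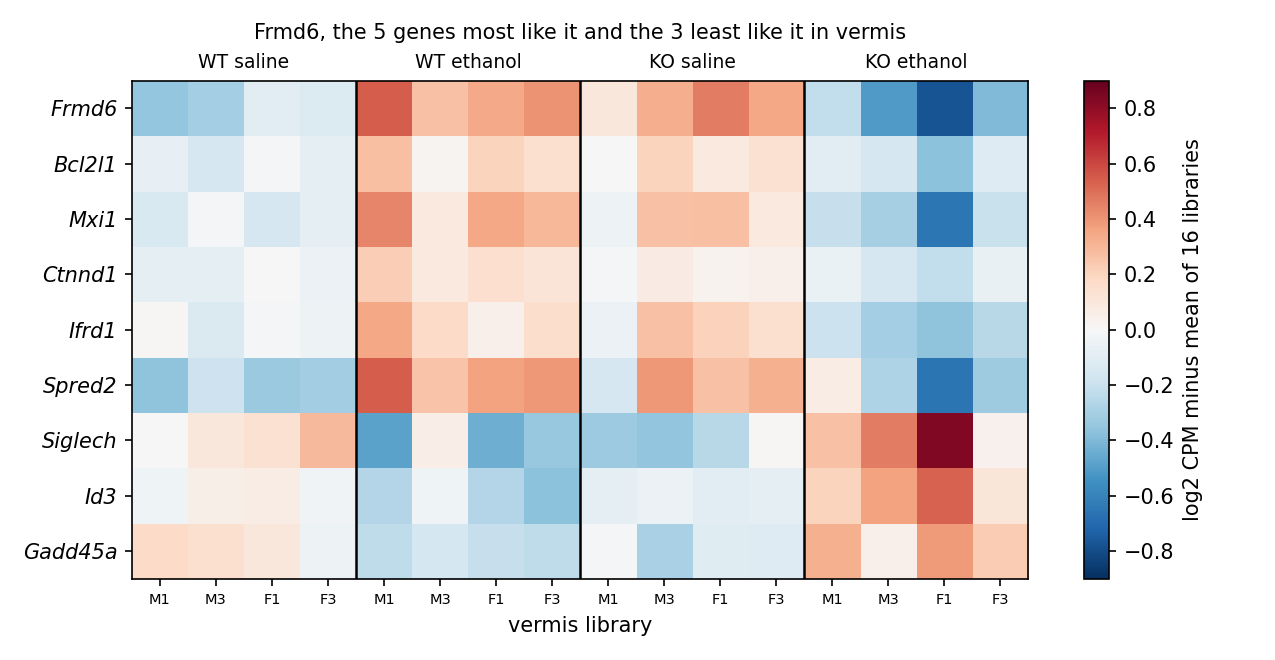
Log2 CPM minus the mean of the 16 vermis libraries (colour) for Frmd6, the 5 genes with the highest and the 3 with the lowest Pearson r to it (rows), in each vermis library (columns, by group). The rows from Bcl2l1 to Spred2 (r = 0.944 to 0.919) are mostly red in ethanol-exposed WT and saline-exposed KO, and the rows of Siglech, Id3 and Gadd45a (r = -0.852 to -0.885) mostly blue. This pattern follows from the way the rows were chosen.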

How the data were processed

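Both deposited tables hold unnormalised read counts, 1 for genes and 1 for transcript models. The submitters' processing notes name the build GRCm39 and the tools STAR 2.7.10a, featureCounts 2.0.6, cutadapt 5.0, DESeq2 and bcl2fastq. The tools' roles and the strand setting are not given in the sources used here. In each library 85.1% to 91.6% of low counts were even, as when the mates of a pair are counted separately. The members and gene lists were chosen with earlier results of these data known.

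Counts were analysed with edgeR 4.0.16 (R 4.3.3). Genes were kept by filterByExpr (23394 in hippocampus, 22441 in vermis), normalised by TMM and put through the quasi-likelihood F-test (robust dispersions), with the 16 libraries of a region in 1 fit, sex as a covariate and Benjamini-Hochberg adjustment over all genes at 0.05. Regions were compared on 24458 genes with mouse as a block, since both regions came from the same mice. Displayed CPM used TMM factors over 32 libraries, and log2 CPM a prior count of 2. The fit was checked on simulated counts. The 48 library pairs within groups all differed beyond sampling noise (chi-square per degree of freedom at least 9.05). The largest values, 204.7 to 233.6, were those of F1 of saline-exposed WT vermis against the rest of its group. The other pairs of that group had 9.449 to 19.96. The fits with 1 library left out include 1 without it. The labels say 4 mice per group and name 1 sequencing batch. They do not give the dam or litter of a mouse, although the dams were treated. Litter could therefore not be modelled, and the SE and p treat the mice of a group as independent. Named genes were the members, up to 4 genes per list and comparison that passed, the 5 highest and 3 lowest correlations with Frmd6, and Acss2. Results were recomputed with DESeq2 1.42.0, with RLE factors, with all genes kept, without sex, with the replicate label as a block, with a fit of the compared groups alone, and with each library left out in turn. Leaving out F1 and M3 of ethanol-exposed KO vermis was added after seeing the data. Figures used matplotlib 3.10.9.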

Additional observations from a re-analysis of the deposited data

Results flagged for a closer look

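The exposure effect on Frmd6 in vermis had opposite directions in the genotypes, with every ethanol-exposed WT library above and every ethanol-exposed KO library below its saline group (interaction -1.37 on the log2 scale). Frmd6 was chosen for this pattern, and the difference was not tested.

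Among 80 groups of 4 libraries (10 genes in 8 groups), 3 held a library far from the others on the log2 CPM scale, where chance flags about 1 in 20. Frmd6 in ethanol-exposed WT hippocampus was at 4.44 in M3 (21.7 CPM) against 4.69 to 4.73 in the other libraries. Nf2 in ethanol-exposed WT vermis was at 6.50 in M3 (90.7 CPM) against 6.41 to 6.42. Tead1 in ethanol-exposed WT vermis was at 4.56 in F3 (23.5 CPM) against 4.77 to 4.79.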

How the results depend on the processing

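The Frmd6 log2 ratio in vermis was 0.60 to 0.61 in WT and -0.77 to -0.78 in KO under the alternatives that kept all libraries. With 1 library left out it was 0.54 to 0.65 and -0.87 to -0.66. Without F1 and M3 of the ethanol group it was -0.61 in KO. Frmd6 was chosen for these values and its groups did not overlap, so leaving out libraries could not reverse the direction. The count of members called was 0 in the main analysis of every comparison within a region. DESeq2 gave 1 for KO against WT after ethanol, in hippocampus (Wwtr1) and in vermis (Lats1). Without the low-count filter, 1 was called in 3 hippocampal comparisons, Ccn2 for ethanol in WT and in KO and Tead1 for KO against WT after ethanol. In that fit the prior degrees of freedom were infinite (5.64 with the filter), so every gene took the variance of the trend, and the SE of Ccn2 in WT went from 0.448 to 0.117. With 1 library left out the count ranged from 0 to 2 for KO against WT in ethanol-exposed vermis, and from 0 to 1 for ethanol in KO vermis. For the regions, among members other than Frmd6, only the Yap1 call changed, ending in 5 of 16 cases with 1 mouse left out.

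Whether the replicate labels pair the libraries within a region was not settled. Same-numbered libraries of compared groups correlated from -0.274 to 0.415 in hippocampus and from -0.291 to 0.250 in vermis, with 6 and 9 of 16 pairs over 0.1. In vermis every label was positive for ethanol in WT (0.068 to 0.190) and for KO against WT after saline (0.066 to 0.230). Same-numbered libraries share their sex, which was not removed here. With the replicate label as a block 0 members were called in every comparison within a region, and Frmd6 had 0.60 in WT and -0.77 in KO vermis. The block ended the call of Frmd4a. Without the mouse block the same 8 of the 9 members other than Frmd6 differed between regions, and 0 in the exposure effect. Of 2905 values of single genes under an alternative, 67 lost a call, 8 gained one and 0 reversed with a call, and 113 of 2470 uncalled values changed sign. All-gene counts moved most with DESeq2 (129 against 0 for ethanol in WT hippocampus) and without the filter (608). Ccn1 rests on 48 to 230 counts per vermis library.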
